A study of Mus musculus with 5 samples.

Results

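The T cell receptor (TCR) signalling genes described here are the 9 mouse genes Cd3e, Cd3d, Cd3g, Cd247, Zap70, Lck, Fyn, Lat and Lcp2. Each gene body, taken from the GENCODE annotation of mm9, was extended by 20 kb on each side, and every called ChIP-seq region that overlapped such a window was taken. This gave 17 of the 9135 Runx3-bound regions and 59 of the 18992 H3K4me1-marked regions. Because the windows of Cd3e, Cd3d and Cd3g share regions, the 9 genes form 7 loci. The rule used gene names and positions and no measured value, but the genes were chosen with earlier results of these data known.

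The transcription factor Runx3 belongs to the RUNX family and acts in cytotoxic lymphocytes. H3K4me1 (monomethylated lysine 4 of histone H3) is a histone mark abundant at enhancers. Both had been mapped by ChIP-seq in CD8-TC (splenic CD8+ T cells) that were selected from ICR mice on anti-CD8 magnetic beads. All cells had the same history, namely 2 days of TCR activation by plate-bound anti-CD3e with soluble anti-CD28 and then 4 days with 100 u/ml IL-2, and no resting or Runx3-deficient group was analysed here. The 5 libraries were 2 precipitations with anti-Runx3 antibody, 2 with non-immune serum (NIS) as control and 1 with anti-H3K4me1 antibody. The reads of repeat libraries had been joined before peaks were called once per antibody, and the lists give positions only. No value below therefore has a replicate error, the lists hold no read numbers from which the depth behind a region could be given, and no test between conditions can be made. Intervals are 95% Wilson intervals that cover counting error among regions only, and the regions of a locus are not independent of each other.

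As background, the TCR itself has no enzymatic activity. Its signal passes through the CD3 chains (encoded by Cd3e, Cd3d and Cd3g) and the zeta chain (Cd247), whose cytoplasmic tails carry tyrosine motifs that the Src family kinases Lck and Fyn phosphorylate. The kinase ZAP-70 then docks on these tails and phosphorylates the adaptors LAT and SLP-76 (encoded by Lcp2), on which phospholipase C gamma and Ras activators assemble. Stimulation with anti-CD3e, as used for these cells, enters the pathway at the receptor chains.

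The sequences at the binding regions are shown first, because they hold the motifs that RUNX factors recognise. They were cut from the NCBIM37 (mm9) genome around the motifs near the centre of each region, and are named by gene and distance of the region's centre from the gene start in kb, negative values being upstream. Capitals mark the RUNX motif, searched on both strands as the words TGTGGT, then TGTGGC, then TGCGGT, then TGCGGC. A motif on the other strand therefore reads as ACCACA, or as GCCACA, or as ACCGCA, or as GCCGCA. Annotated UTR bases were left out, which is why the Cd3d regions have no sequence here. The first 4 are the regions with a pair of RUNX motifs close together.
Zap70 +5.20 kb, chr1:36823859-36823897, plus strand: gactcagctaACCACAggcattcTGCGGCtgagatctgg
Fyn -10.14 kb, chr10:39078452-39078623, plus strand: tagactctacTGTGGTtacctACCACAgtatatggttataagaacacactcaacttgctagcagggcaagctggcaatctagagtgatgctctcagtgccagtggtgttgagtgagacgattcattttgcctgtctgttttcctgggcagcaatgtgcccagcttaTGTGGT
Fyn +0.74 kb, chr10:39089333-39089409, plus strand: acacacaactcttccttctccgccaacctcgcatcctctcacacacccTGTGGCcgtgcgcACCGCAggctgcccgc
Lcp2 +3.96 kb, chr11:33950778-33950949, plus strand: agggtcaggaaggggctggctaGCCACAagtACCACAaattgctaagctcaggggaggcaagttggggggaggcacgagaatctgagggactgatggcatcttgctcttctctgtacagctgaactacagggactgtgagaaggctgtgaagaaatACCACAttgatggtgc

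The next 5 hold 1 RUNX motif near an ETS motif (the words AGGAAG, then AGGAAA, then CGGAAG, then CGGAAA, on both strands, left in lower case). ETS factors are frequent partners of RUNX factors in lymphocytes. The Lat region, where an ETS word lies 1 bp from the RUNX word, has the closest spacing. An ETS and a RUNX motif at most 5 bp apart were found in 2 of the 17 regions (11.8%). Over all Runx3-bound regions the share was 13.8%.
Lat -0.003 kb, chr7:133513065-133513109, minus strand: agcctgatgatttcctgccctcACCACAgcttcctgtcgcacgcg
Lck -0.07 kb, chr4:129250886-129250977, minus strand: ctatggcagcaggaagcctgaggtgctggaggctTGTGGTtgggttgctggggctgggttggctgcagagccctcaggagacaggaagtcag
Lck +1.91 kb, chr4:129248931-129249016, minus strand: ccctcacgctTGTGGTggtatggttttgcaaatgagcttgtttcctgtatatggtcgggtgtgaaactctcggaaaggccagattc
Fyn +33.77 kb, chr10:39122464-39122532, plus strand: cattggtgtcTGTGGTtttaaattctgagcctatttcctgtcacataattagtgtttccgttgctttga
Lcp2 +17.22 kb, chr11:33964110-33964242, plus strand: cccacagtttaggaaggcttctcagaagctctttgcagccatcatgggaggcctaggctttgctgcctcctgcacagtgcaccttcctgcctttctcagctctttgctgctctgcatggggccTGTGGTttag

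The Cd247 region is shown by its centre and by a stretch of 212 bp with 4 of its 7 RUNX motifs, of which the first 2 overlap as a palindrome. Of the Fyn region at +110.74 kb, a stretch is shown in which the capitals mark an AP-1 motif (TGACTCA, also searched as TGAGTCA) and a RUNX motif. These longer stretches were chosen after the motif positions were known.
Cd247 +56.58 kb, centre, chr1:167775338-167775363, plus strand: actttcggtaACCGCAcagcagccgg
Cd247 +56.58 kb, upstream side, chr1:167775002-167775213, plus strand: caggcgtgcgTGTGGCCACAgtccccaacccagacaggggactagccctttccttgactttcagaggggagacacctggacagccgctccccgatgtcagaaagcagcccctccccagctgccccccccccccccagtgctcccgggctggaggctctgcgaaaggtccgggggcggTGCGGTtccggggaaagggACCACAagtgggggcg
Fyn +110.74 kb, chr10:39199352-39199442, plus strand: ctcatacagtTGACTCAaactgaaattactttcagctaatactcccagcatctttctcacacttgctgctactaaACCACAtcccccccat

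Of the 9 genes, 9 had a Runx3-bound region in their window, compared to 34.2% of the 22350 protein-coding genes of chromosomes 1 to 19 and X under the same rule. A Runx3-bound region that also overlapped H3K4me1 was present for 8 of the 9, all except Lat (17.8% of all genes). An H3K4me1-marked region was present for 9 of the 9 (39.4% of all genes). A Runx3-bound region centred under 1 kb from an annotated start of the gene itself was present for 4, namely Cd3d, Lck, Fyn and Lat (10.4% of all genes). Long windows hold regions more often, with 28.8% of genes in windows under 60 kb (where Cd3e, Cd3d, Cd3g and Lat belong), 39.7% in those of 60 to 100 kb (Zap70, Lck and Lcp2) and 43.3% in those of 100 kb or more (Cd247 and Fyn). The counts for Cd3e, Cd3d and Cd3g rest on the same 2 Runx3-bound regions, which lie in or at Cd3d. A window can also hold other genes, such as Fam167b beside Lck and Spns1 beside Lat, and position alone does not show on which gene a region acts.

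**Figure D1:**
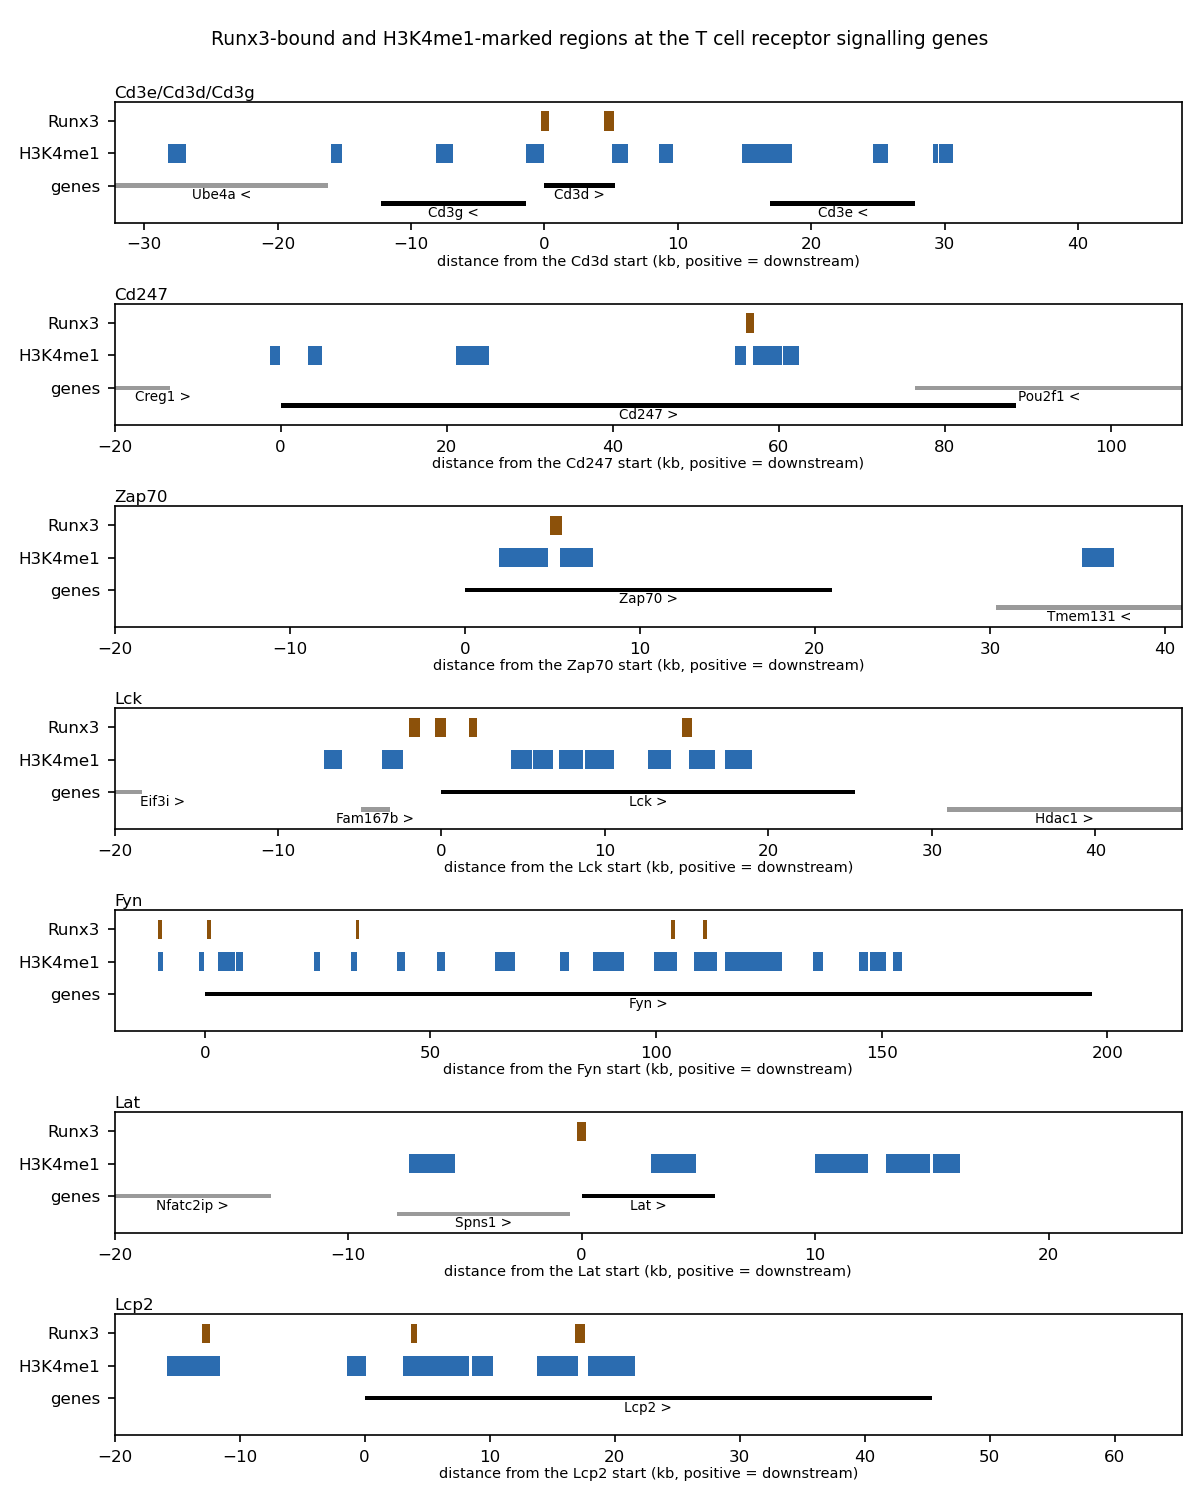
Maps of the 7 loci in the orientation of the member gene, with distance from its start in kb on the x axis. Brown bars are Runx3-bound regions, blue bars H3K4me1-marked regions, black lines the 9 genes and grey lines other protein-coding genes, with > for genes transcribed to the right and < for genes transcribed to the left. The 5 Runx3-bound regions of Fyn are spread over its window, 3 of the 4 of Lck lie near its start, and the 2 of the Cd3 genes lie at both ends of Cd3d.

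The receptor chains were examined first. Cd3g, Cd3d and Cd3e, which encode the gamma, delta and epsilon chains of CD3, lie side by side on chromosome 9 (mm9 chr9:44777655-44788514, chr9:44789876-44795135 and chr9:44806826-44817673), with Cd3d on the plus strand and its neighbours on the minus strand. The locus held 2 Runx3-bound regions, 4799 bp apart between centres, and both were at Cd3d. The first (chr9:44789656-44790227, 572 bp) lay over the Cd3d start, with its centre at +0.065 kb, and covered coding exon and UTR. The second (chr9:44794351-44795129, 779 bp) lay over the last part of Cd3d, with its centre at +4.86 kb, and also covered coding exon and UTR. The nearest Runx3-bound region to the Cd3g start was the first one, at -1.43 kb, whereas the Cd3e start was 22.9 kb from the centre of the nearest. With gene bodies alone Cd3e and Cd3g had 0 Runx3-bound regions, so that their count depends on the window.

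H3K4me1 was called in 11 regions of the Cd3 locus, 8 in the window of each gene, and these covered 19.6% of the Cd3e window, 22.4% of the Cd3d window and 21.3% of the Cd3g window. Over all protein-coding genes the mean cover was 2.64% and the median 0. A marked region of 1362 bp filled the space between the divergent starts of Cd3g and Cd3d, covering the Cd3g start and ending 27 bp before that of Cd3d. It overlapped the first Runx3-bound region by 194 bp (33.9% of its width). The second Runx3-bound region overlapped, by 205 bp (26.3%), a marked region of 1230 bp that ran past the end of Cd3d. At Cd3e, the nearest mark was a region of 368 bp at 1339 bp upstream of the start, which is the narrowest width in the H3K4me1 list. The widest in the locus, of 2411 bp, lay over the end of Cd3e.

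The RUNX motifs of both Cd3d regions were in transcribed UTR. The first region held 1 (TGTGGC, centred 55 bp downstream of the start) and the second held 4, of which 3 began at 19, 38 and 57 bp downstream of the centre. They also held 4 and 5 ETS motifs, respectively. AP-1 motifs were absent from both.

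Cd247 (chr1:167718812-167807407, plus strand), which encodes the zeta chain, had the lowest density of Runx3-bound regions of the 9 genes, with 1 in its window or 0.778 per 100 kb. This region (chr1:167774926-167775862) lay in an intron at +56.6 kb and, at 937 bp, was the widest of the 17 and wider than 96.8% of the Runx3 list. It held 7 RUNX motifs, the most of the 17, and 4 ETS motifs, and its GC content was 61.8% compared to a median of 49.1% over the list. It lay between H3K4me1-marked regions, with 94 bp (10.03%) inside the one downstream, of 3469 bp, and 79 bp separating it from the one upstream, of 1275 bp. Cd247 had 6 marked regions in all, the widest of 3972 bp in an intron, and a mark of 1189 bp ended 61 bp before the gene start, where no Runx3-bound region was called.

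Of the kinases, Zap70 (chr1:36818695-36839663, plus strand), which encodes the kinase that docks on the phosphorylated receptor chains, had 1 Runx3-bound region of 710 bp in an intron at +5.20 kb (chr1:36823545-36824254). It filled the space between 2 marked regions, of 2818 and 1896 bp, with 99 bp (13.9%) inside the downstream one and 73 bp from the upstream one. It held 3 RUNX and 4 ETS motifs, and the RUNX pair shown above lay at its centre. With 3 marked regions Zap70 had the fewest of the 9 genes, and the nearest to its start was 1959 bp downstream.

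Lck (chr4:129225588-129250885, minus strand), which encodes the kinase that is carried by the CD8 and CD4 coreceptors, had 4 Runx3-bound regions, 6.13 per 100 kb, the highest density of the 9 genes. Of all protein-coding genes, 97.8% had fewer in their window. The annotation gives 7 Lck transcript starts, of which 6 form a group in its downstream part. A region of 640 bp lay over the upstream start (centre at -0.067 kb, chr4:129250633-129251272), and another of 570 bp lay at the downstream group (chr4:129235588-129236157, -0.237 kb from the nearest start). The other 2 were close to the upstream start, in an intron at +1.91 kb (chr4:129248737-129249213, 477 bp) and at -1.65 kb (chr4:129252177-129252886, 710 bp).

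These Lck regions differed in their H3K4me1 surroundings. Only the one at the downstream starts overlapped a mark, by 149 bp (26.1%). The region over the upstream start lay in a gap between marks, 4004 bp from the mark inside the gene and 1988 bp from the one outside, and the region at +1.91 kb lay in the same gap. The region at -1.65 kb lay between the same marks, but more than 5 kb from the one inside the gene. It was 374 bp from the one outside, of 1266 bp at the neighbouring gene Fam167b. That mark was the nearest to the upstream Lck start, at 2376 bp. Of the 9 marked regions of the Lck window 8 had no Runx3-bound region, and the widest was 1829 bp. The 4 Runx3-bound regions held 2, 1, 1 and 2 RUNX motifs from the downstream to the upstream end, and that over the upstream start held its motif centred at -55 bp from the start.

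Fyn (chr10:39088661-39285187, plus strand), the other Src family kinase of the TCR, is the longest of the 9 genes at 196.5 kb and had the most regions, 5 Runx3-bound and 19 H3K4me1-marked. Its density of Runx3-bound regions was 2.11 per 100 kb, below that of Lck, whereas marks covered 25.3% of its window, the highest cover of the 9. Of the 5, 3 lay within marked regions. These were a region of 424 bp upstream of the gene at -10.1 kb (chr10:39078312-39078735), one of 428 bp at +104 kb (chr10:39192006-39192433) and one of 588 bp at +111 kb (chr10:39199108-39199695), the last pair in introns and 7182 bp apart. A region of 670 bp in an intron at +33.8 kb (chr10:39122098-39122767) had 319 bp (47.6%) inside a mark. The fifth, of 518 bp at +0.744 kb (chr10:39089147-39089664), touched annotated UTR and lay in a gap between marks 604 and 1835 bp away, and its centre was at -0.165 kb from one of the 9 Fyn starts in the annotation.

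The region at -10.1 kb held 3 RUNX motifs, all of the word TGTGGT, and the region at +111 kb held 4 with an AP-1 motif and 0 ETS motifs. The region at +104 kb was the only one of the 17 with 0 RUNX motifs. It held 2 ETS motifs, and lay inside a mark of 5241 bp. The widest mark of the 59, of 12626 bp and wider than 99.97% of the H3K4me1 list, lay in a Fyn intron and had 0 Runx3-bound regions, the nearest being 4176 bp away. The mark nearest to the Fyn start ended 119 bp upstream of it.

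Of the adaptors, Lat (chr7:133507346-133513057, minus strand), whose product anchors the signalling complex in the membrane, had a single Runx3-bound region at its start (chr7:133512888-133513233, centre at -0.003 kb). At 346 bp this was the narrowest of the 17, with 10.5% of the list narrower, and its GC content of 65.3% was the highest of the 17. Its RUNX motif was centred at -27 bp from the start with ETS motifs on both sides. No mark overlapped it, and the nearest, of 1943 bp, was 2977 bp downstream of the Lat start and 2807 bp from the region. Lat had 5 marked regions, the widest of 2250 bp, and 0 of them held Runx3.

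Lcp2 (chr11:33946920-33992295, plus strand), which encodes SLP-76, had 3 Runx3-bound regions, and all 3 overlapped H3K4me1. A region of 700 bp at -12.7 kb (chr11:33933879-33934578), in an intron of the overlapping annotated transcript 4930469K13Rik, lay within a mark of 4287 bp and held 2 RUNX motifs and an AP-1 motif. A region of 490 bp at +3.96 kb (chr11:33950633-33951122), over a coding exon, lay within the widest mark of the locus, of 5292 bp, and held 4 RUNX motifs, 1 of them in the coding sequence. A region of 831 bp in an intron at +17.2 kb (chr11:33963728-33964558) had 241 bp (29.0%) inside a mark of 3280 bp and was 235 bp from the next, of 3762 bp. It held 3 RUNX motifs, all of the word TGTGGT, and 8 ETS motifs, the most of the 17. Marks covered 23.1% of the Lcp2 window. The Lcp2 start itself lay in a mark of 1469 bp that had no Runx3-bound region.

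**Figure D2:**
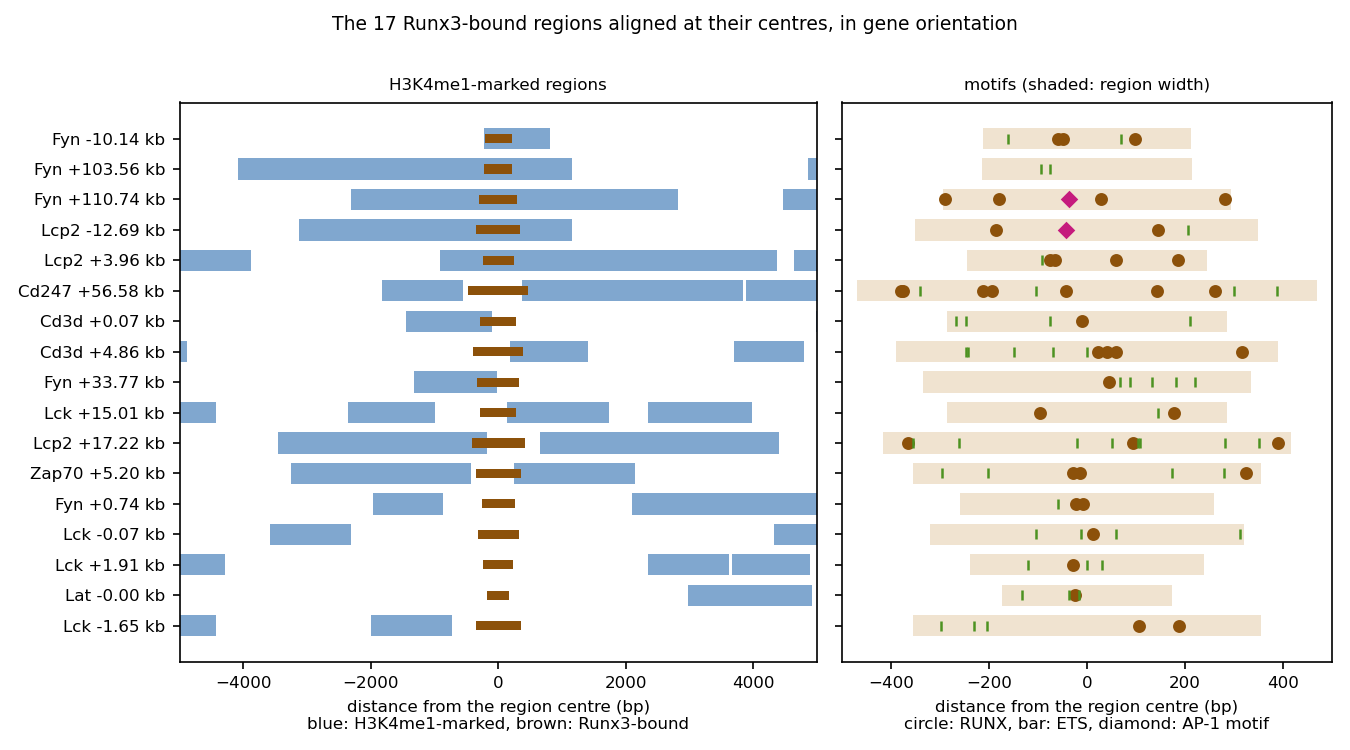
The 17 Runx3-bound regions aligned at their centres in gene orientation, with distance from the centre in bp on the x axes. On the left, brown bars are the Runx3-bound regions and blue bars the H3K4me1-marked regions nearby. On the right, the shading is the width of each region, circles RUNX motifs, vertical bars ETS motifs and diamonds AP-1 motifs. The top 5 regions lie within a mark, the next 7 reach into the edge of a mark, and the last 5 have no overlap.

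Across the 7 loci, the Runx3-bound regions were set beside the whole list for their position relative to H3K4me1. Overlap with a mark by at least 1 bp was found for 12 of the 17 (70.6%, interval 46.9 to 86.7%), compared to 57.3% of all Runx3-bound regions. Of the 17, 5 were within a mark (29.4%, interval 13.3 to 53.1%, list 34.7%) and 7 reached over its edge (41.2%, interval 21.6 to 64.0%, list 22.6%). Overlap of the edge regions was between 10.03 and 47.6% of their width, so that the centre was covered in 5 of the 17 (29.4%) compared to 46.3% of the list. A further 3 lay in a gap, with marks within 5 kb on both sides (17.6%, interval 6.19 to 41.0%, list 3.98%), 2 had a mark on a single side (11.8%, list 10.8%) and 0 had none within 5 kb (interval up to 18.4%, list 27.9%). Counting regions over an edge and in gaps together, 9 of the 17 had marks within 5 kb on both sides without lying within one (52.9%, interval 31.0 to 73.8%, list 19.1%). The intervals treat regions as independent, but the gap regions at Lck -0.07 kb and +1.91 kb lay between the same marks. They therefore cannot show which shares differ from the list. This is a description without a test, and H3K4me1 was called in the windows of all 9 genes.

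Distance to a start was close to that of the list. Of the 17 regions, 5 were under 1 kb from an annotated transcript start (29.4%, list 26.3%), 4 were 1 to 5 kb away (23.5%, list 17.3%) and 8 were 5 to 50 kb away (47.1%, list 45.4%). Overlap with H3K4me1 was found for 2 of the 5 near a start (Cd3d and the downstream starts of Lck) and for 10 of the 12 farther away, compared to 19.97% and 70.6% of the list in these classes. The regions near a start had a median GC content of 55.3% and the others 47.9% (list 58.5 and 47.5%). Another Runx3-bound region lay within 10 kb of 7 of the 17 (41.2%, list 33.5%), in the Cd3, Lck and Fyn loci.

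The motifs too were close to those of the list. A RUNX motif was present in 16 of the 17 (94.1%, interval 73.0 to 98.95%, list 92.6%), and in the central 200 bp in 14 (82.4%, list 78.8%). The 41 motifs were 24 of the word TGTGGT, 11 of TGTGGC, 4 of TGCGGT and 2 of TGCGGC. Over the list they were 11024, 6005, 2192 and 1992 of 21213, respectively. Regions with TGTGGT were 76.5% (list 69.6%) and with TGTGGC 47.1% (list 45.7%). Those with TGCGGT were 11.8% (interval 3.29 to 34.3%, list 20.8%) and with TGCGGC 11.8% (interval 3.29 to 34.3%, list 16.3%). The median distance from the centre to the nearest was 36 bp, compared to 38 bp over the list. A pair of RUNX motifs at most 50 bp apart was found in the central 200 bp of 5 regions (29.4%, list 25.7%), namely those at Zap70, at Cd3d +4.86 kb, at Fyn -10.14 kb and +0.74 kb and at Lcp2 +3.96 kb. A RUNX and an ETS motif in the same spacing were found in 9 (52.9%, interval 31.0 to 73.8%, list 39.0%). An ETS motif was present in 16 (94.1%, list 88.9%) and an AP-1 motif in 2 (11.8%, list 13.5%), at Fyn +110.74 kb and Lcp2 -12.69 kb. A match describes the sequence and does not show that a factor bound there. The median width was 588 bp, compared to 521 bp over the list.

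**Figure D3:**
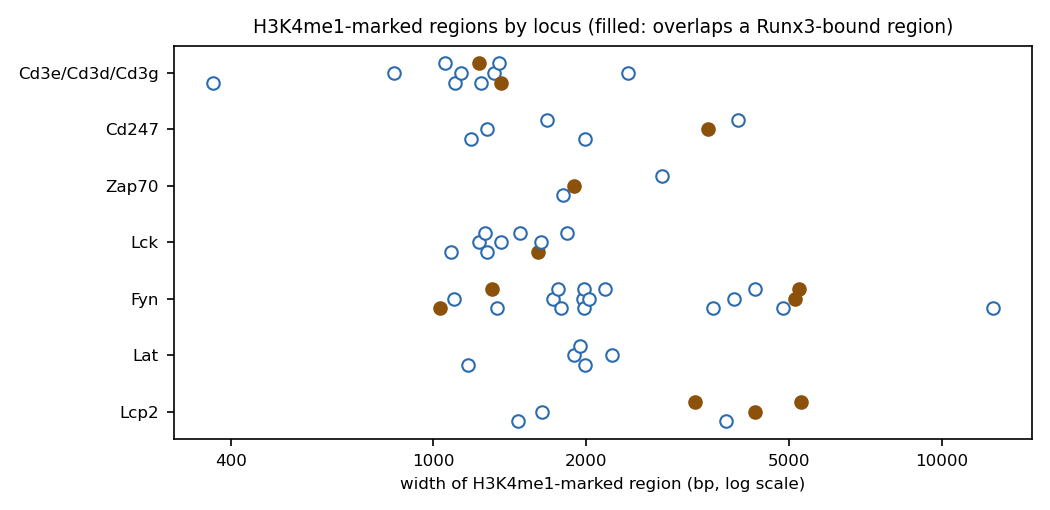
Widths of the 59 H3K4me1-marked regions by locus, in bp on a log axis, 1 point per region. Filled brown points overlap a Runx3-bound region and open blue points do not. Of the 59, 12 are filled, 3 of the 6 at Lcp2 and 0 of the 5 at Lat, and the widest, of 12626 bp at Fyn, is open.

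H3K4me1-marked regions that overlapped Runx3 were 12 of the 59, with a median width of 2588 bp compared to 1724 bp for the 47 that did not. The median over the whole H3K4me1 list was 1592 bp. The share of that list overlapping Runx3 is not given here, so these counts describe the 9 genes only. By locus they were 4 of 19 at Fyn, 3 of 6 at Lcp2, 2 of 11 at the Cd3 genes, 1 of 6 at Cd247, 1 of 3 at Zap70, 1 of 9 at Lck and 0 of 5 at Lat. The part of width in this overlap was not tested. The marked sequence added up to 59.8 kb at Fyn, 19.7 kb at Lcp2, 13.6 kb at Cd247, 13.4 kb at the Cd3 genes, 12.8 kb at Lck, 9.25 kb at Lat and 6.51 kb at Zap70. The gene start lay in a mark for Cd3g and Lcp2, and within 119 bp of one for Cd3d, Cd247 and Fyn, whereas for Cd3e, Zap70, Lck and Lat the nearest mark was 1339 to 2977 bp away.

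For comparison, 39 other genes of the pathway, also listed with earlier results of these data known, were examined under the same rule. Of these 35 had a Runx3-bound region (34.2% of all genes), 31 one that overlapped H3K4me1 (17.8%) and 14 one under 1 kb from their start (10.4%). An H3K4me1-marked region was present for 38 (39.4%). The medians were 3 Runx3-bound and 5 marked regions. Windows of neighbouring genes such as Txk and Tec overlap, and the 39 held 110 distinct Runx3-bound regions. The 9 genes had medians of 2 and 8, and over all protein-coding genes both medians were 0. The median of 8 rests on Cd3e, Cd3d and Cd3g, which each count 8 marks from the same 11. By locus the marked regions numbered 19, 11, 9, 6, 6, 5 and 3, so the medians of 8 and 5 do not show an excess. The other kinases had Runx3-bound regions in 5 of 5. The other adaptors had them in 10 of 11, led by Grap2, which encodes the SLP-76 partner GADS, with 5, and not at Nck1. The effectors had them in 8 of 8, led by Plcg1, which encodes phospholipase C gamma 1, with 6. The phosphatases and other inhibitors had them in 12 of 15, led by Ubash3b, which encodes a tyrosine phosphatase that dampens TCR signals, with 6, and not at Ubash3a, Dgkz or Dok1.

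In the counterpart pathway of B cells, 2 of 7 B cell receptor genes, Cd79a and Blk, had a Runx3-bound region, with 1 each (34.2% of all genes). A mark was present for 3 of the 7 (39.4% of all genes). Both medians were 0, the same as over all protein-coding genes, so these counts were close to the background. Among markers of cell identity, Cd8a and Cd8b1, which encode the CD8 coreceptor chains, had 2 and 5 Runx3-bound and 3 and 9 marked regions, respectively. Of the B cell markers, Cd79a had 1 Runx3-bound and 2 marked regions, while Cd79b and Ms4a1 had 0 of both. The NK cell marker Ncr1 had 0 of both, and of the myeloid markers Itgax had 2 and 3, while Csf1r and Lyz2 had 0 of both. The part of other cell types in these results was not tested. RNA was not measured in these libraries, so that expression of the genes was not examined here.

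**Figure D4:**
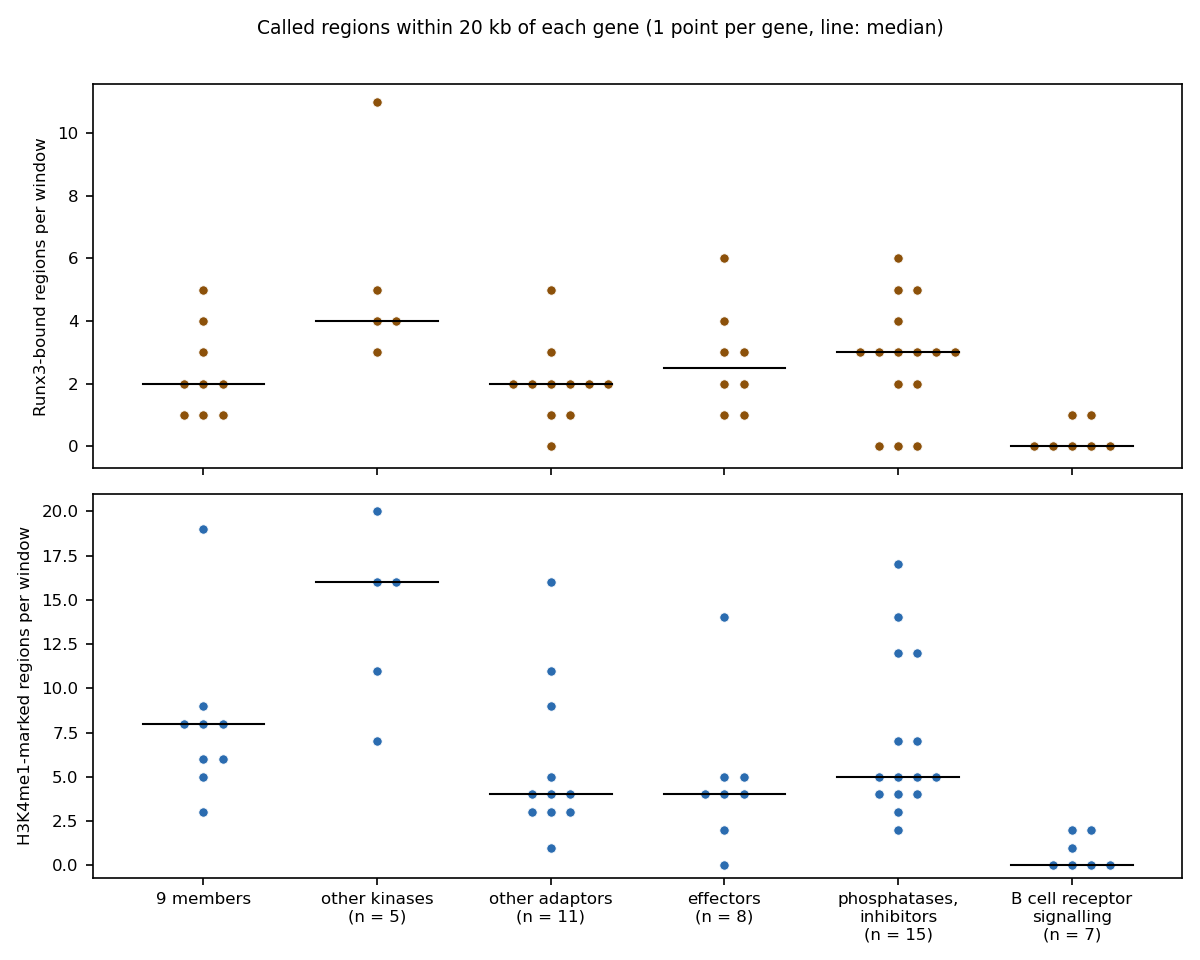
Number of Runx3-bound (top) and H3K4me1-marked regions (bottom) within 20 kb of each gene, 1 point per gene, with the median as a line. The 9 genes have 1 to 5 Runx3-bound regions, the 39 other pathway genes have a median of 3 and the B cell receptor genes have 0 or 1.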

How the data were processed

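The data are ChIP-seq peak lists from IL-2-activated CD8-TC. Per the labels and methods, the authors used ELAND to align short Illumina reads to mm9 and discarded reads without a unique position. Repeats were joined, and MACS called peaks over the joined NIS control after the larger read set was scaled down. Joining hides the spread between repeats, and unique alignment limits detection in repeated sequence. The deposited values are start and end positions in bp, with 0 columns beyond position and peak name. The labels list 1 H3K4me1 library while their protocol speaks of 2 replicates, so it is not known which the H3K4me1 list rests on. The lists hold no read numbers, and depth was not analysed here.

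Starts were converted to count from 1. Windows were GENCODE vM1 protein-coding gene bodies with 20 kb on each side, and overlap needed at least 1 bp. Distances run from region centres to 86883 annotated transcript starts. An edge region overlapped a mark in part, and a gap region had marks within 5 kb on both sides. Motif pairs lay at most 50 bp apart, without overlap, in the central 200 bp. All Runx3-bound regions of the 9 genes were named, with the widest mark of each locus and that nearest each start. In the other pathway lists, the gene with the most Runx3-bound regions and those with 0 were named, except for items that are not reported here. Members and lists were chosen with earlier results of these data known. Of the listed genes, Tespa1 and Syk were not matched by name and were not analysed here. Other windows, widths, merging, overlap rules and starts were tried as alternatives. Computations used Python 3.11.15, NumPy 2.4.6, SciPy 1.17.1 and matplotlib 3.10.9, and the functions, tested on simulated data, had 0 differences from direct counting.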

Additional observations from a re-analysis of the deposited data

How the results depend on the processing

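Of 24 alternatives, 20 left the value within 1.5 times the count, or within the interval of the share, found with the deposited lists and the 20 kb window. Keeping only regions at least as wide as the median of their list lowered the Runx3-bound regions from 17 to 11 and the H3K4me1-marked regions from 59 to 35. This cut keeps about 50% of a whole list by definition, so a fall in both counts was built in. The share of Runx3-bound regions overlapping H3K4me1 fell from 70.6 to 29.4% when at least 50% of the region had to be covered, and also to 29.4% when its centre had to be, since the 7 edge regions are covered by less than that. With gene bodies alone, 5 kb and 50 kb on each side there were 14, 15 and 25 Runx3-bound regions, and 7, 8 and 9 of the 9 genes had one (18.1, 23.5 and 47.9% of all protein-coding genes). Cd3e and Cd3g were those without in gene bodies, and also when each region went to the nearest gene start, Cd3e with 5 kb, and Lat with wide regions only. No paired analysis was possible because peaks had been called on joined reads, and for the same reason no replicate could be left out. Read depth limits how many regions are called, and the lists hold no read numbers with which to measure this. The paper gives read totals that were lower for these cells than for resting CD8-TC, for Runx3, NIS and H3K4me1 alike. The part of depth in the absence of a called region was not tested.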

Other observations

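RUNX motifs were also counted in the marked regions. At the 9 genes, the 12 H3K4me1-marked regions that overlapped Runx3 held 73 RUNX motifs in 35.1 kb, or 2.08 per kb, and 11 of the 12 held at least 1. The 47 without Runx3 held 212 in 99.9 kb, or 2.12 per kb, and 45 of the 47 held at least 1. The median density per marked region was in the opposite order, 2.25 per kb with Runx3 and 2.05 per kb without. The widest mark at Fyn, of 12626 bp, held 28 RUNX motifs (2.22 per kb) and 0 Runx3-bound regions. The mark of 1189 bp upstream of the Cd247 start held 7, which at 5.89 per kb was the highest density of the 59, and it was 56174 bp from the nearest Runx3-bound region. These values were looked at after the positions were known, and no difference between the groups was tested.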
